A study of Mus musculus with 8 samples.

Results

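The 9 genes described here mark macrophages that live in tissues: C1qa, C1qb, C1qc, Csf1r, Adgre1, Mrc1, Cd163, Timd4 and Folr2. They were taken by gene name from a table of 54532 genes, and all 9 were present and were among the 16971 genes that passed the filter on low counts. They were measured by RNAseq in 8 libraries of sorted cells that express membrane GFP (mG+). The mice were females aged 8 months. All carried Tie2e-cre, a Cre recombinase driven by an endothelial promoter, and the mTmG reporter, which turns from membrane Tomato to membrane GFP wherever Cre has acted. KO mice were TERTfl/fl and so lack Tert, the catalytic subunit of telomerase, in those cells, and WT mice were TERT+/+. Subcutaneous adipose tissue (SAT) came from mice on high-fat diet (HFD) and from mice on chow, whereas visceral adipose tissue (VAT) and gastrocnemius muscle came from mice on chow. Each of these 4 tissue and diet conditions had 1 WT and 1 KO library, so that no pair has a replicate, and it is not given whether a library pools several mice. The p-values therefore measure the spread left between these libraries after condition and genotype are fitted. That spread includes any variation of the KO over WT difference between conditions, and may be technical in part.

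Macrophages of adipose tissue and muscle take up dead cells, lipid and debris, and many of them sit along blood vessels. Their survival depends on CSF1R, a receptor tyrosine kinase that binds the growth factors CSF1 and IL34. Tissue macrophages are the main source of C1q, the recognition molecule of the classical complement pathway, which is assembled from A, B and C chains. ADGRE1 is the F4/80 antigen, an adhesion GPCR used to identify mouse macrophages. MRC1 (CD206) is a mannose receptor and CD163 takes up haptoglobin bound to hemoglobin. TIMD4 (TIM4) binds phosphatidylserine on dying cells, and FOLR2 is a folate receptor. The last 4 are typical of resident macrophages rather than of recently arrived monocytes. Tie2 promoters can also be active in some cells of blood origin.

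Library totals ran from 6214269 counts (SAT HFD WT) to 18855772 counts (SAT chow WT), and 3 counts, the floor used for bounds, correspond to between 0.181 and 0.451 CPM, the unit used for levels (read counts scaled to a common library size by TMM). Tert, the deleted gene, was read first. Its count was 114 (WT) and 0 (KO) under HFD, 70 (WT) and 11 (KO) in chow SAT, and 24 (WT) and 7 (KO) in muscle. VAT held 3 counts under the WT label and 9 under the KO label, in libraries of 9389345 and 14344720 counts. So few reads of Tert cannot check the labels, and VAT libraries are named by their labels throughout. The SAT chow WT library stood apart in the nuclear RNA Malat1, at 292 CPM against 2149 to 5836 CPM in the other 7. In that pair the KO over WT ratio also moved with gene length: its median was −0.36 (log2) in the shortest genes, of at most 952 bases, and 0.86 in the longest, of at least 9177 bases. In the other 3 pairs the medians of such short and long genes lay between −0.14 and 0.16. All 10 endothelial markers examined (Pecam1 and Cdh5 the most abundant) had more than 3 counts in every library.

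The C1q genes lie side by side on chromosome 4 (GRCm38, minus strand) in the order C1qb (136880129 to 136886187), C1qc (136889804 to 136893065) and C1qa (136895917 to 136898803), within 18675 bases. Promoter sequence is shown for the members whose analysed window held 1 of 2 motifs of macrophage factors. These motifs are GAGGAA, the core of sites bound by PU.1, and TGCTGAC, a half-site of MAF factors. Windows ran from 250 bases before to 50 after the RefSeq start (GRCm38.p6), and both strands were searched. The stretches printed end before the start given by RefSeq or by the gene model of the count table, whichever lies further upstream, and capitals mark the motif, as TTCCTC or GTCAGCA where it lies on the opposite strand. They cover chr4:136886201-136886450 (minus strand), chr4:136893066-136893164 (minus strand), chr2:14229164-14229391 (plus strand) and chr11:46810549-46810798 (plus strand).
C1qb: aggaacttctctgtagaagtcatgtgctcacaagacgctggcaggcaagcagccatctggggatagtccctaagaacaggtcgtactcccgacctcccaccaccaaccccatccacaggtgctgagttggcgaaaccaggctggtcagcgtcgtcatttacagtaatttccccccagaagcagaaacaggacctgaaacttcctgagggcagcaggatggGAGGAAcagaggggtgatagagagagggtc
C1qc: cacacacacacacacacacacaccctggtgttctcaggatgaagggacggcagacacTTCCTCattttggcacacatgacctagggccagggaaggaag
Mrc1: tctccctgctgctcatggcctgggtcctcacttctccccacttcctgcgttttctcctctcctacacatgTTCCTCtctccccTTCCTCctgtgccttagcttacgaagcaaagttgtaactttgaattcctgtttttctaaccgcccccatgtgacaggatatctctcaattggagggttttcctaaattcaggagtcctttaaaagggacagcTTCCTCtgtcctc
Timd4: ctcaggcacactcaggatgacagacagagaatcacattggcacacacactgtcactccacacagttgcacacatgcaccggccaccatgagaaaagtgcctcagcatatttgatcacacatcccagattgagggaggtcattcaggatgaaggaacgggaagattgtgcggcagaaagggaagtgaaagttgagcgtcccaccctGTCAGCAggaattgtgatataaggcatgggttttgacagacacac
GAGGAA began at base −30 before the RefSeq start of C1qb, at −193 for C1qc, and at −180, −167 and −35 for Mrc1. TGCTGAC began at −45 for Timd4. Of the 7 member windows analysed, 3 held GAGGAA, against 28.3% of all 32851 windows, and 1 held TGCTGAC, against 4.67%. Neither motif was found in the window of Cd163 or in the pair of windows of Folr2. Windows for C1qa, Csf1r and Adgre1 were not analysed here. The motifs do not overlap each other, and a match is a description of the letters only.

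All 9 genes were most abundant in VAT. In each case both VAT libraries lay above the other 6, which was so for 15.2% of all genes tested. Summed over the 9 genes, the level was 9013 CPM in the VAT library labelled WT and 8875 CPM in the one labelled KO. The sum was 783 and 392 CPM in WT and KO for SAT on chow, 584 and 261 CPM in muscle, and 294 and 170 CPM in SAT on HFD. The 9 genes thus took 0.901% and 0.888% of the scaled counts in VAT, and at most 0.0783% in any other library. Averaged per gene and per kb of gene length, the macrophage genes stood at 10.4 and 12.2 times the level of the 10 endothelial markers in the VAT libraries labelled WT and KO. The same ratio was 4.23 and 1.53 in WT and KO for SAT on chow, and 2.20 and 1.30 for SAT on HFD. In WT and KO muscle it was 0.775 and 0.262. In bulk libraries, fewer cells of a type and less RNA per cell cannot be told apart.

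**Figure D1:**
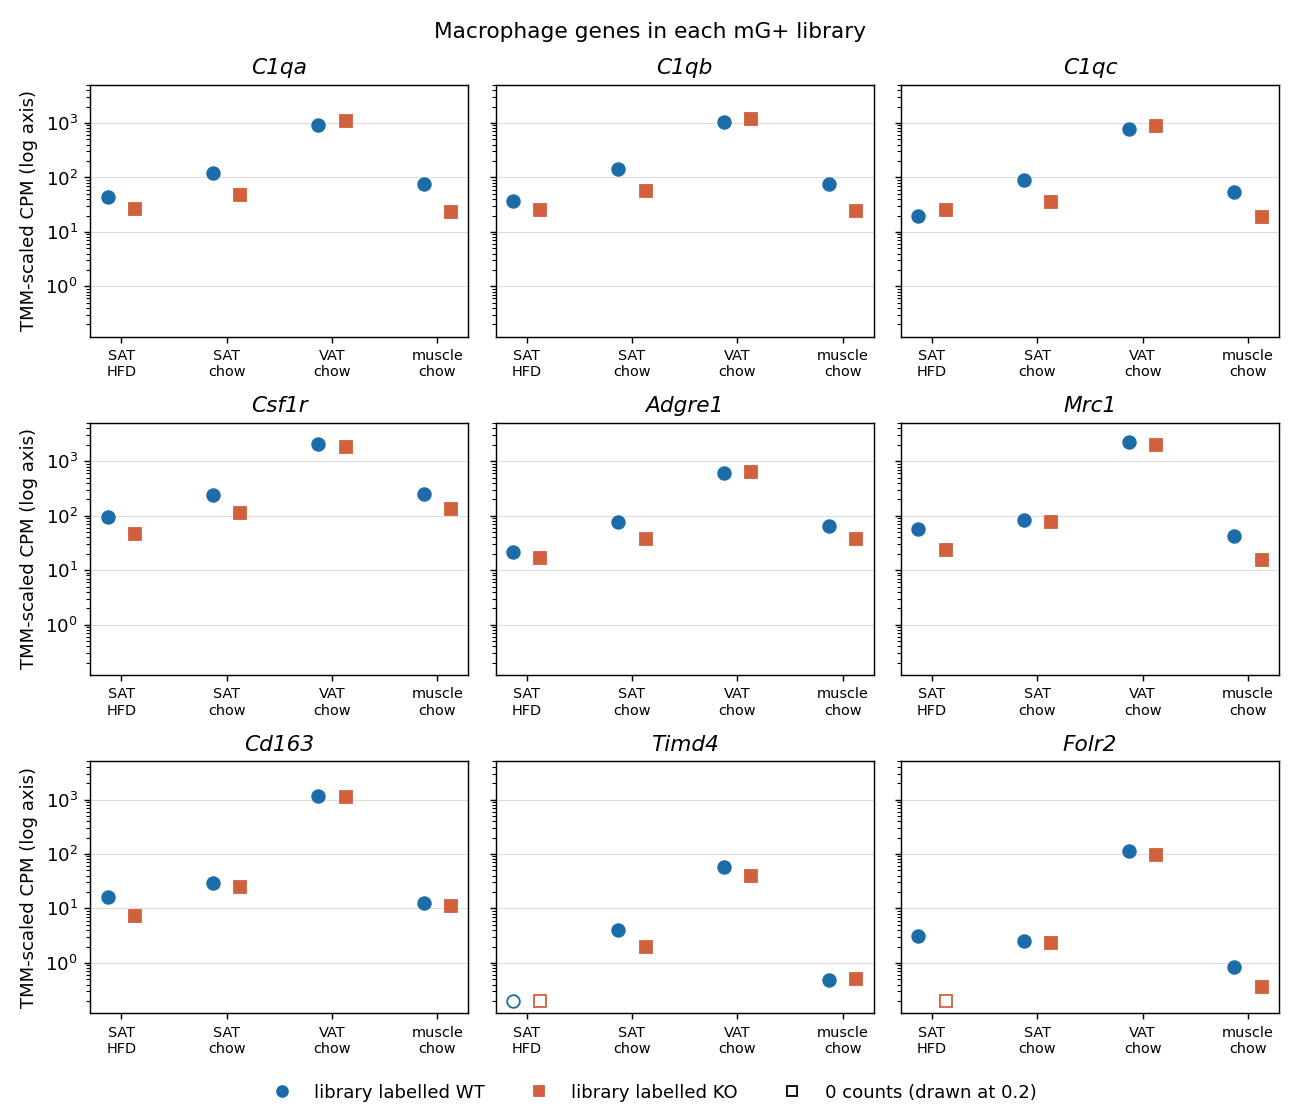
TMM-scaled CPM (log axis) of the 9 macrophage genes in each of the 8 libraries, by tissue and diet. Circles are libraries labelled WT, squares are libraries labelled KO, and open symbols mark 0 counts, drawn at 0.2. The VAT points lie above all others in every panel, and Timd4 has open symbols in both SAT HFD libraries.

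The C1q chains were read first. C1qa, the A chain, stood at 920 and 1083 CPM in the VAT libraries labelled WT and KO, 122 and 48.0 CPM in SAT on chow, 75.8 and 23.6 CPM in muscle, and 42.9 and 26.3 CPM in SAT on HFD. C1qb, the B chain, stood at 1040 and 1198 CPM in VAT, 140 and 56.2 CPM in SAT on chow, 77.3 and 24.6 CPM in muscle, and 37.6 and 25.7 CPM in SAT on HFD. C1qc, the C chain, stood at 773 and 877 CPM in VAT, 88.2 and 35.7 CPM in SAT on chow, 55.2 and 18.8 CPM in muscle, and 19.4 and 24.9 CPM in SAT on HFD. For each chain the VAT libraries were separate from the rest, whereas the muscle range overlapped those of SAT on both diets. VAT exceeded SAT on chow 13.8-fold for C1qa (log2 3.79, SE 0.52), 13.2-fold for C1qb (3.72, SE 0.52) and 14.7-fold for C1qc (3.88, SE 0.57). The adjusted p-values were 0.0109, 0.0112 and 0.0134 by the quasi-likelihood test of edgeR, with Benjamini-Hochberg adjustment over all genes.

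The proportions of the 3 chains varied little among the chow libraries. C1qb had 1.02 to 1.17 counts per count of C1qa in the 6 chow libraries. C1qc had 0.722 to 0.840 counts per count of C1qa in the same libraries, with small differences beyond counting error, as between SAT WT (95% counting interval 0.675 to 0.773) and VAT labelled WT (0.813 to 0.867). In SAT on HFD both proportions lay outside these ranges. C1qb had 0.877 counts per count of C1qa in WT (0.737 to 1.04) and 0.979 in KO (0.837 to 1.14). Both of these counting intervals reached into the chow range. C1qc had a ratio of 0.453 in WT (0.365 to 0.559) and 0.946 in KO (0.808 to 1.11). That WT library was the shallowest of the 8 and held 129 counts of C1qc. The counting intervals, here and below, are exact binomial intervals and cover counting error only.

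Csf1r (chromosome 18, 61105572 to 61132149, plus strand), the receptor that maintains macrophages, stood at 2064 and 1840 CPM in the VAT libraries labelled WT and KO, 236 and 110 CPM in SAT on chow, 255 and 130 CPM in muscle, and 94.2 and 45.8 CPM in SAT on HFD. Adgre1 (chromosome 17, 57358691 to 57483527, plus strand), which encodes F4/80, stood at 602 and 631 CPM in VAT, 75.8 and 38.1 CPM in SAT on chow, 64.9 and 37.0 CPM in muscle, and 21.8 and 16.5 CPM in SAT on HFD. Both genes had overlapping ranges in chow SAT and muscle, and both were lowest in SAT on HFD, whose libraries did not reach those of the other conditions. VAT exceeded SAT on chow 12.3-fold for Csf1r (log2 3.63, SE 0.41, adjusted p = 0.00580 by edgeR's quasi-likelihood test) and 11.6-fold for Adgre1 (3.53, SE 0.38, adjusted p = 0.00498 by the same edgeR test). These were the smallest of the 9 VAT over SAT folds.

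The scavenger receptors had larger fitted differences between VAT and SAT than the C1q genes, Csf1r and Adgre1. Whether these members differ from each other was not tested. Mrc1 (chromosome 2, 14229392 to 14332057, plus strand) stood at 2304 and 1986 CPM in the VAT libraries labelled WT and KO, 84.2 and 75.1 CPM in SAT on chow, 58.1 and 23.4 CPM in SAT on HFD, and 42.4 and 15.1 CPM in muscle. Cd163 (chromosome 6, 124304656 to 124330527, plus strand) stood at 1139 and 1122 CPM in VAT, 29.6 and 25.2 CPM in SAT on chow, 16.6 and 7.20 CPM in SAT on HFD, and 12.8 and 10.9 CPM in muscle. For both genes SAT on chow lay above muscle and above SAT on HFD with no overlap, and the latter 2 ranges overlapped. VAT exceeded SAT on chow 26.8-fold for Mrc1 (log2 4.75, SE 0.51, adjusted p = 0.00498, edgeR) and 41.7-fold for Cd163 (5.38, SE 0.44, adjusted p = 0.00436, edgeR).

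Timd4 (chromosome 11, 46810800 to 46844332, plus strand), the phosphatidylserine receptor, stood at 57.9 and 40.1 CPM in the VAT libraries labelled WT and KO and at 3.99 and 1.93 CPM in SAT on chow. In muscle it stood at 0.485 and 0.507 CPM, from 8 and 7 counts, and it had 0 counts in both SAT HFD libraries. Folr2 (chromosome 7, 101839988 to 101857194, minus strand), the folate receptor, stood at 113 and 97.8 CPM in VAT, 2.54 and 2.35 CPM in SAT on chow, 3.16 CPM in WT and 0 counts in KO for SAT on HFD, and 0.849 and 0.362 CPM in muscle, from 14 and 5 counts. These were the scarcest members in every tissue, and outside VAT their order rests on few counts. VAT exceeded SAT on chow 17.0-fold for Timd4 (log2 4.09, SE 0.59, adjusted p = 0.0149, edgeR) and 43.2-fold for Folr2 (5.43, SE 1.04, adjusted p = 0.0278, edgeR).

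Per kb of gene length, the order of levels in VAT was C1qb (956 and 1101 CPM per kb in the libraries labelled WT and KO), C1qa (885 and 1042), C1qc (400 and 454), Csf1r (423 and 377), Mrc1 (362 and 312), Cd163 (209 and 206), Adgre1 (186 and 195), Folr2 (72.9 and 63.3) and Timd4 (26.6 and 18.4). The ranges of C1qb and C1qa overlapped, as did those of C1qc and Csf1r, and the other neighbours in that order did not. In muscle the order differed. Csf1r, at 52.1 and 26.7 CPM per kb, overlapped C1qa at 72.9 and 22.7 CPM per kb, while Mrc1 at 6.65 and 2.38 and Cd163 at 2.34 and 1.99 CPM per kb lay below Adgre1 in both libraries. In SAT on chow Mrc1, at 13.2 and 11.8 CPM per kb, fell within the range of Adgre1 (23.4 and 11.8).

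As a group, 9 of 9 members were higher in VAT than in SAT on chow, where 3.31% of all 16971 genes tested were called higher. Their median log2 difference was 3.88, against −0.08 over all genes. Leaving out the VAT library labelled KO left 5 of 9 called (Csf1r, Adgre1, Mrc1, Cd163 and C1qa), leaving out the one labelled WT left 7 (all but Timd4 and Folr2), and leaving out the SAT chow WT library left 8 (all but Folr2), with every direction kept. Other lists moved in the same comparison, in which 1.74% of all genes were called lower. Of the 10 endothelial markers 7 were higher in VAT (median 2.02), all 5 B cell markers were lower (−3.52), and all 6 T cell markers were lower (−3.21). Their part in the difference of the macrophage genes was not tested.

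**Figure D2:**
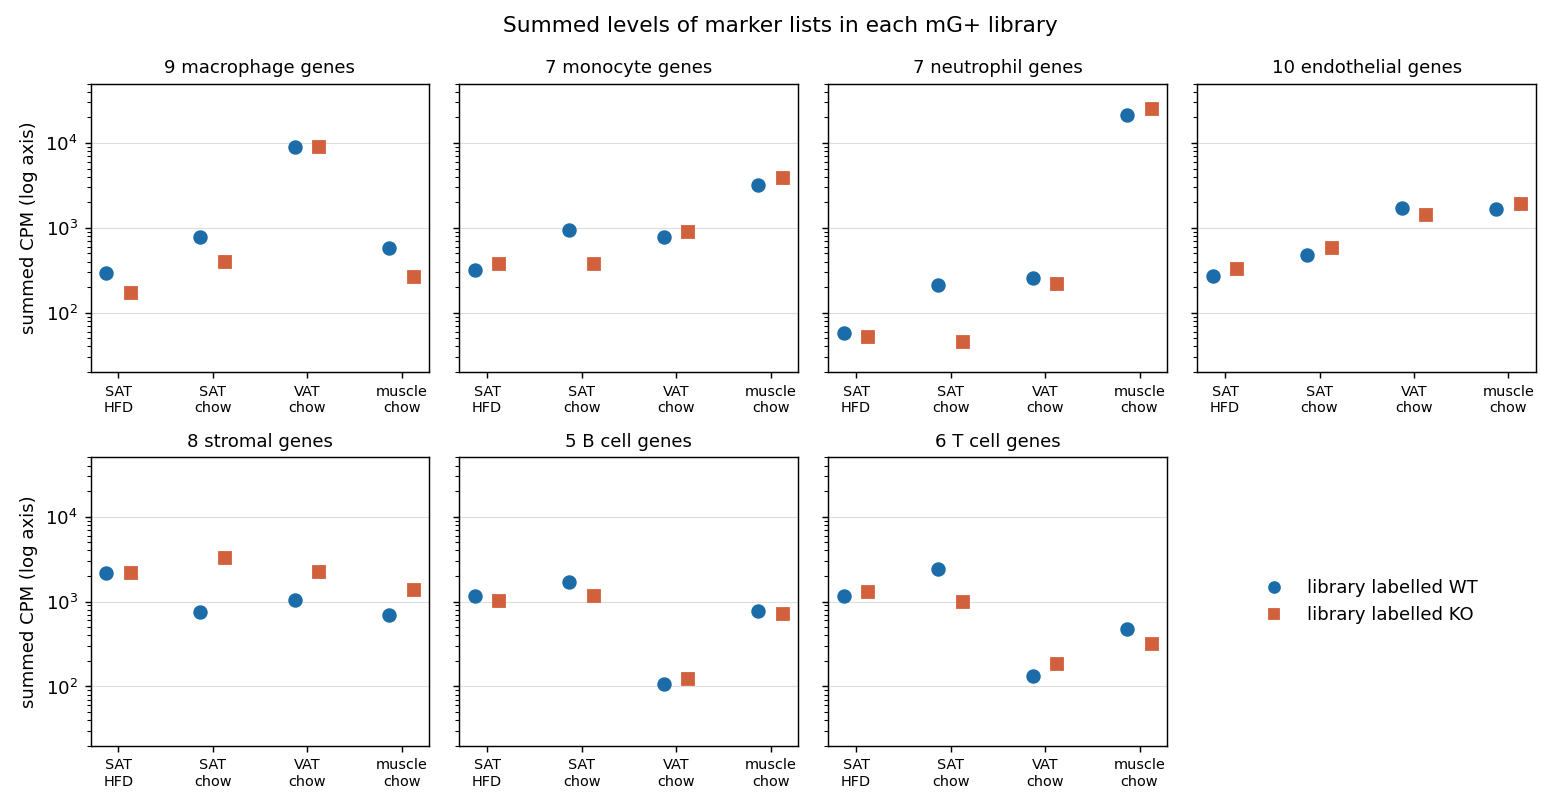
Summed CPM (log axis) of the 9 macrophage genes and of 6 lists of markers of other cell types in each library. Circles are libraries labelled WT and squares libraries labelled KO. The macrophage sum peaks in VAT at 9013 and 8875 CPM, and the neutrophil sum in muscle at 21228 and 25427 CPM.

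Muscle was compared with VAT next, and 9 of 9 members were lower, where 1.05% of all genes were called lower. The median log2 difference was −4.71, against 0.02 over all genes. The members separated by size of the difference. Csf1r was 11.0-fold lower in muscle (log2 −3.45, SE 0.41, adjusted p = 0.00794, edgeR's quasi-likelihood test) and Adgre1 12.8-fold (−3.68, SE 0.38, adjusted p = 0.00539, edgeR). The C1q genes were lower by 24.4-fold (C1qa), 26.2-fold (C1qb) and 25.0-fold (C1qc), with adjusted p-values of 0.00812, 0.00763 and 0.0107 by edgeR. The receptors Mrc1, Cd163, Timd4 and Folr2 were lower by 83.5-fold, 96.6-fold, 95.2-fold and 192-fold, with edgeR adjusted p-values of 0.00498, 0.00458, 0.00763 and 0.0226. Whether these groups of members differ from each other was not tested.

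The muscle calls depended on single libraries. Without the muscle KO library 2 of 9 members (Mrc1 and Cd163) were called, without the VAT library labelled KO 5, without muscle WT 6 and without the VAT library labelled WT 7, again with every direction kept. Muscle libraries held 21228 and 25427 CPM of 7 neutrophil markers in WT and KO, against 45.1 to 255 CPM in the other 6 libraries. Of these markers 7 of 7 were higher in muscle than in VAT, as were 0.884% of all genes. The 7 monocyte markers summed to 3235 and 3846 CPM in WT and KO muscle and to 321 to 933 CPM elsewhere, but 2 of 7 were called higher in muscle than in VAT. The largest share of that sum was Chil3, at 1609 and 2290 CPM, and Ccr2, a chemokine receptor of monocytes, had a fitted difference of −1.87. The part of either list in the muscle levels was not tested.

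Muscle and SAT on chow differed less. None of the 9 members was called by edgeR's quasi-likelihood test, where 0.147% of all genes were called lower. At an unadjusted p under 0.05, 3 members (Mrc1, Cd163 and Timd4) were lower, where 4.43% of all genes were. DESeq2's Wald test called the same 3, against 1.91% of the 14009 genes to which it gave an adjusted p. The edgeR estimates were −1.64 (SE 0.45, adjusted p = 0.162) for Mrc1, −1.21 (SE 0.38, adjusted p = 0.218) for Cd163 and −2.48 (SE 0.61, adjusted p = 0.132) for Timd4. Those of Csf1r and Adgre1 were 0.17 (SE 0.37) and −0.15 (SE 0.34). Both muscle libraries lay below both SAT libraries for 4 of 9 members (Mrc1, Cd163, Timd4 and Folr2), and for 22.5% of all genes. Without the SAT chow WT library none was called by edgeR and 3 had an unadjusted p under 0.05, with Adgre1 turning to 0.26. Without SAT chow KO, Timd4 was called (adjusted p = 0.0466, edgeR) and Csf1r turned to −0.01.

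**Figure D3:**
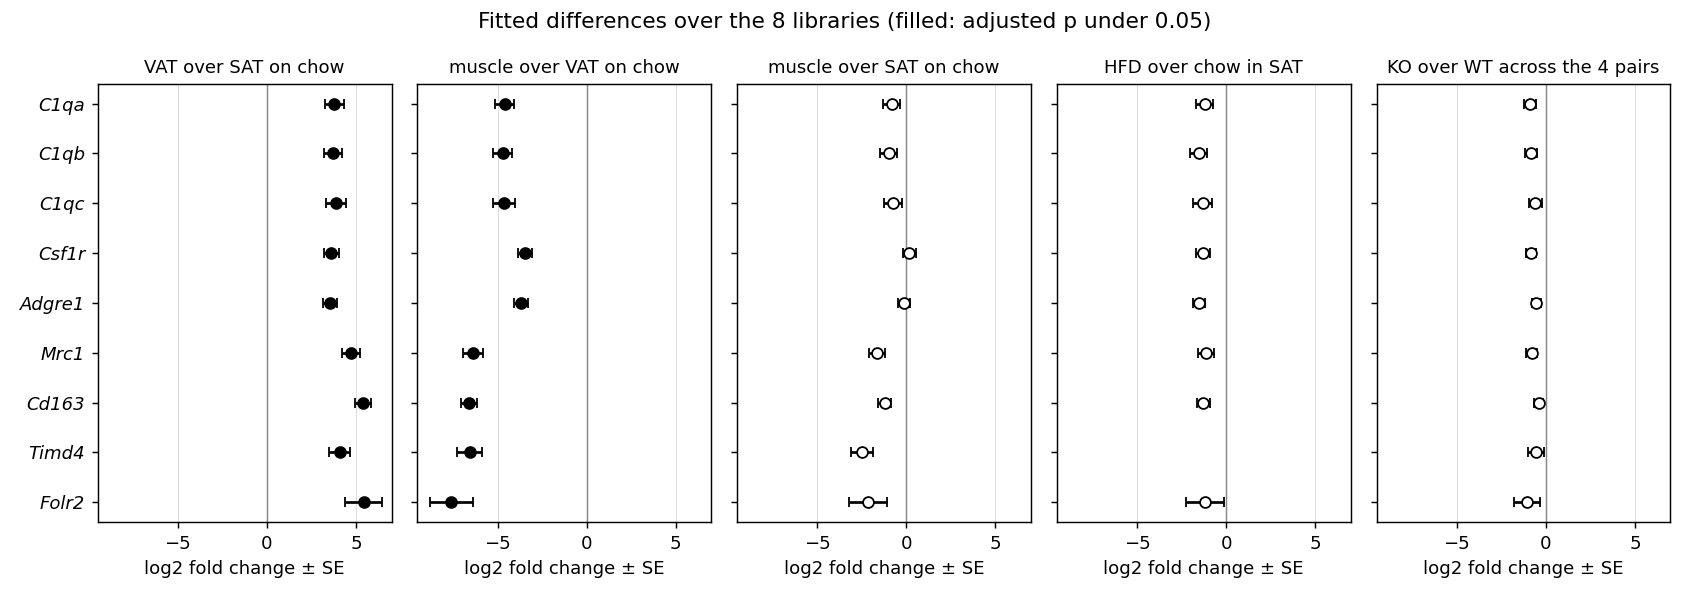
Fitted log2 fold changes with SE (horizontal bars) of the 9 genes in 5 comparisons, from edgeR's model over the 8 libraries. Filled points have an adjusted p under 0.05. All 9 are filled in VAT over SAT and in muscle over VAT, and none in the other 3 panels. Timd4 is not drawn for HFD over chow because both HFD libraries had 0 counts.

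HFD was compared with chow in SAT, the tissue measured on both diets. All 9 fitted differences were negative and none passed edgeR's adjusted threshold, at which 0% of all genes were called lower. At an unadjusted p under 0.05 edgeR had 8 of 9 members lower (all but Folr2), against 7.43% of all genes. DESeq2's Wald test called 3 (Csf1r, Adgre1 and Timd4), against 1.48% of the 15983 genes to which it gave an adjusted p. Both HFD libraries lay below both chow libraries for 8 of 9 members (all but Folr2) and for 22.7% of all genes. The members' median was −1.30 and that of all genes −0.24, in the same direction. With library totals these medians were −1.08 and −0.03. The count of 8 fell to 5 with library totals or with size factors, to 4 without either HFD library and to 5 without the SAT chow WT library, where the members' median was −1.12. Without SAT chow KO, Timd4 was called (adjusted p = 0.0459, edgeR).

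Among single genes, Adgre1 was 2.87-fold lower on HFD (log2 −1.52, SE 0.36, adjusted p = 0.362, edgeR) and Csf1r 2.46-fold (−1.30, SE 0.38, adjusted p = 0.531, edgeR). C1qb was 2.88-fold lower (−1.53, SE 0.48, adjusted p = 0.583, edgeR) and Mrc1 2.17-fold (−1.12, SE 0.45, adjusted p = 0.605, edgeR). Timd4 had 66 and 32 counts in the chow libraries and 0 in both HFD libraries, which made it at least 8.59-fold lower, taking 3 counts in each HFD library as the floor (adjusted p = 0.150, edgeR). None of these differences passed the threshold after adjustment, and the HFD libraries were among the shallower ones. Markers of other cells moved in the same comparison, none called. The endothelial markers had a median log2 difference of −1.25 and the neutrophil markers one of −1.33, close to the −1.30 of the members, and the stromal markers one of 0.51. Their part in the macrophage values was not tested. Folr2 did not separate the diets, with 21 and 0 counts on HFD and 42 and 39 on chow.

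KO was then set against WT, the comparison the series was built for. Across the 4 pairs all 9 fitted log2 differences were negative, from −0.40 (SE 0.27) for Cd163 to −1.08 (SE 0.73) for Folr2. Their median was −0.79, against 0.02 over all genes. None passed the adjusted threshold in edgeR's quasi-likelihood test (adjusted p = 0.9999 for each), at which 0% of all genes were called lower, nor in DESeq2's Wald test, which called 0.0412% of genes lower. At an unadjusted p under 0.05 edgeR had 4 members lower (C1qa, C1qb, Csf1r and Mrc1), where 0.601% of all genes were. In CPM, Csf1r, Mrc1, Cd163 and Folr2 were lower in the library labelled KO in 4 of 4 pairs, as were 4.53% of all genes. At that threshold 0 members were left without the SAT HFD pair, 0 without the muscle pair, 2 without the SAT chow pair and 5 without the VAT pair. Without the condition as a block the C1q estimates turned to between 0.01 and 0.03.

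The pairs did not look alike. In VAT the members were nearly level, with a median log2 ratio of −0.02. The median was −1.04 in SAT on chow, −1.48 in muscle and −0.87 in SAT on HFD, while that of all genes lay between −0.01 and 0.04 in every pair. The difference between pairs was not tested, because each pair has 1 library per genotype.

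In SAT on chow, 8 of 9 members had a counting interval wholly below 0, as did 40.3% of all genes, and 4 of 9 an interval wholly beyond 2-fold lower, as did 11.7%. C1qa fell from 2020 to 797 counts, 2.54-fold lower (log2 −1.35, 95% counting interval −1.47 to −1.23). C1qb fell from 2322 to 933 counts (−1.32, −1.43 to −1.21) and C1qc from 1459 to 592 (−1.31, −1.45 to −1.17). Csf1r fell from 3911 to 1823 counts (−1.11, −1.19 to −1.03), the fourth beyond 2-fold. Mrc1 and Cd163 were close to level, with 1393 and 1246 counts (−0.17, −0.28 to −0.05) and 490 and 418 counts (−0.23, −0.43 to −0.04). Adgre1 went from 1253 to 632 counts (−0.99, −1.13 to −0.85).

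These values depended on the scaling and moved with gene length. With library totals none of the 9 lay beyond 2-fold, C1qa stood at −1.11 and Mrc1 turned to 0.07. The C1q genes are 1040 to 1931 bases long, and Mrc1 and Cd163 6371 and 5461 bases. Genes of the length of C1qb had a median of −0.91 in this pair and genes of the length of Mrc1 one of 0.00. With the median of the genes of like length subtracted, again none lay beyond 2-fold, and the values were −0.78 for C1qa, −0.41 for C1qb, −0.97 for C1qc, −1.03 for Csf1r, −0.69 for Adgre1, −0.17 for Mrc1 and −0.31 for Cd163. Csf1r and Mrc1, of 4885 and 6371 bases, then had intervals of −1.11 to −0.95 and −0.28 to −0.06, which cover counting error only.

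Other cell types moved in this pair too, where 19% of all genes lay beyond 2-fold higher and 11.7% beyond 2-fold lower. Monocyte markers summed to 933 CPM in WT and 380 CPM in KO, with 5 of 7 beyond 2-fold lower, and T cell markers to 2407 and 990 CPM, with 4 of 6 beyond 2-fold lower. Neutrophil markers summed to 209 and 45.1 CPM, with 6 of 6 lower. Stromal markers summed to 759 CPM in WT and 3296 CPM in KO, with 7 of 8 beyond 2-fold higher, and mural markers to 43.2 and 173 CPM, with 4 of 5. The part of these lists, of Malat1 and of gene length in the macrophage values was not tested.

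**Figure D4:**
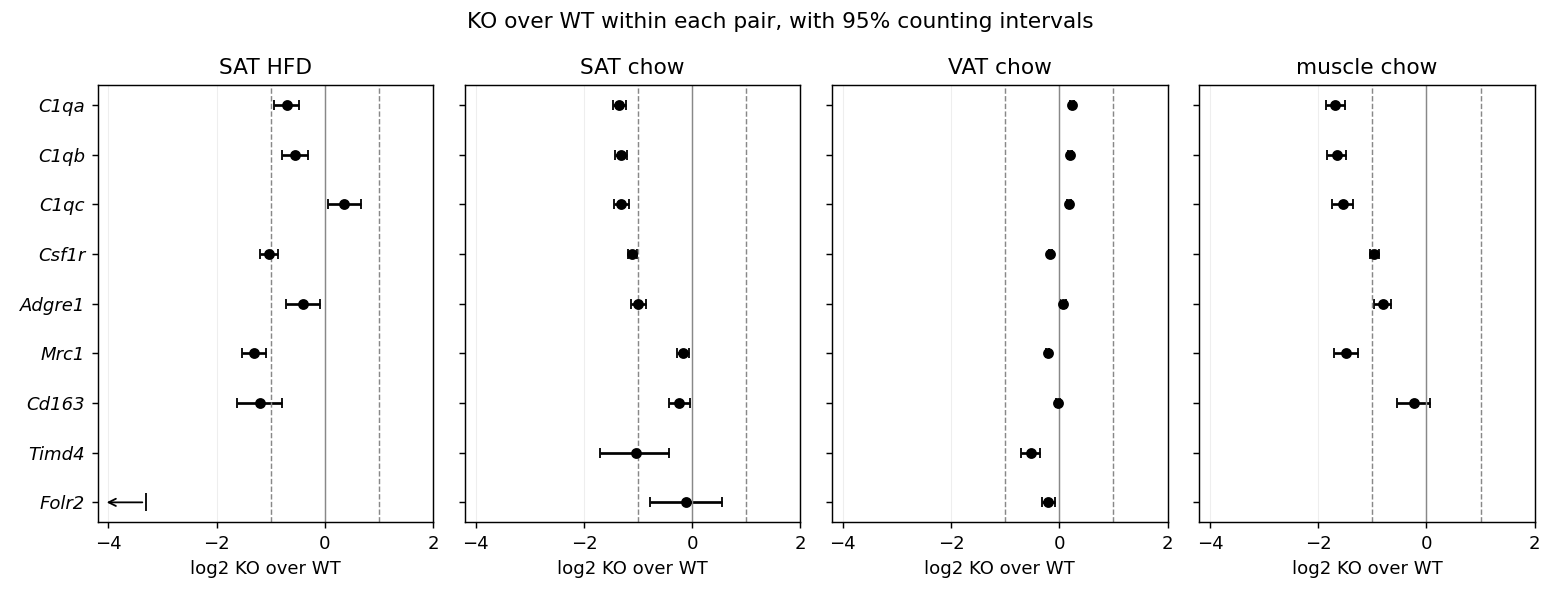
Log2 KO over WT of each macrophage gene within each pair, with 95% counting intervals (bars) and dashed lines at 2-fold. The arrow for Folr2 in SAT HFD starts at the upper limit of its interval, since KO had 0 counts. Gene and pair combinations with a mean under 10 counts are left out. Points in VAT lie near 0, and the C1q points in muscle lie furthest left among those with bars.

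In muscle, 6 of 7 members with enough counts had an interval below 0, as did 29.4% of all genes, and 4 of 7 lay beyond 2-fold lower, as did 2.05%. C1qa fell from 1251 to 326 counts, 3.21-fold lower (log2 −1.68, −1.86 to −1.51). C1qb fell from 1276 to 339 counts (−1.65, −1.83 to −1.48) and C1qc from 910 to 260 (−1.55, −1.75 to −1.35). Mrc1 fell from 699 to 209 counts (−1.48, −1.71 to −1.26). Csf1r went from 4202 to 1800 counts (−0.97, −1.05 to −0.89) and Adgre1 from 1070 to 510 (−0.81, −0.97 to −0.66), both lower without reaching 2-fold over the whole interval. Cd163, with 211 and 150 counts, did not differ beyond counting error (−0.23, −0.55 to 0.07). The same 4 stayed beyond 2-fold with gene length subtracted, C1qa at −1.59 and Mrc1 at −1.49. Other lists moved in this pair, where 2.75% of all genes lay beyond 2-fold higher. Mural markers summed to 130 CPM in WT and 309 CPM in KO, with 4 of 5 beyond 2-fold higher, and stromal markers to 687 and 1356 CPM, with 3 of 8. T cell markers summed to 474 and 314 CPM, with 1 of 6 beyond 2-fold lower, and muscle fibre markers to 23.6 and 8.48 CPM, with 2 of 4. None of the monocyte and neutrophil markers lay beyond 2-fold. The part of these lists in the macrophage values was not tested.

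In SAT on HFD, 7 of 8 members with enough counts had an interval below 0, as did 34.3% of all genes, and 2 of 8 lay beyond 2-fold lower, as did 11.1%. Mrc1 went from 386 to 295 counts in the deeper KO library, 2.48-fold lower after scaling (log2 −1.31, −1.54 to −1.09). Folr2 went from 21 to 0 counts, with an upper limit of −3.31 (log2) to its interval. Csf1r was 2.05-fold lower (−1.04, −1.20 to −0.87) and Cd163 2.29-fold (−1.19, −1.62 to −0.79). The C1q chains did not move together: C1qa was at −0.71 (−0.94 to −0.47) and C1qb at −0.55 (−0.79 to −0.30), but C1qc was at 0.36 (0.06 to 0.66), the only member with an interval above 0, as had 38.3% of all genes. With gene length subtracted C1qc was at 0.20 (−0.10 to 0.51) and no longer differed beyond counting error.

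In VAT, where Tert was too scarce to check the labels, none of the 9 members lay beyond 2-fold lower, as did 2.09% of all genes. Their counting intervals lay above 0 for 4 (the C1q genes and Adgre1), against 26.6% of all genes, and below 0 for 4 (Csf1r, Mrc1, Timd4 and Folr2), against 24.7%. The sizes were small. C1qa was at 0.24 (0.20 to 0.27) and Mrc1 at −0.21 (−0.24 to −0.19) in the library labelled KO. Timd4 differed most, with 517 and 544 counts (−0.53, −0.71 to −0.35). Mural markers in this pair summed to 137 CPM under the WT label and 559 CPM under the KO label, and stromal markers to 1039 and 2255 CPM. With gene length subtracted, C1qa was at 0.03 (−0.01 to 0.07), C1qb at −0.00 (−0.04 to 0.04) and Adgre1 at 0.04 (−0.01 to 0.09), none beyond counting error, while C1qc stayed above 0 at 0.08 (0.04 to 0.13).

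Ratios between members within a library do not depend on the scaling. Mrc1 had 1.12 and 1.08 counts per count of Csf1r in the VAT libraries labelled WT and KO, 0.617 and 0.509 in HFD SAT (WT and KO), 0.356 and 0.683 in chow SAT, and 0.166 and 0.116 in muscle. The counting intervals of VAT, at 1.06 or above, and of muscle, at 0.180 or below, lay clear of those of SAT on either diet. In SAT on chow the ratio was higher in KO (0.635 to 0.735) than in WT (0.335 to 0.379). Cd163 had 0.552 and 0.610 counts per count of Csf1r in VAT, 0.176 and 0.157 in SAT on HFD, 0.125 and 0.229 in SAT on chow, and 0.0502 and 0.0833 in muscle. Adgre1 stayed between 0.232 and 0.359 counts per count of Csf1r in all 8 libraries. The receptors thus varied against Csf1r by tissue far more than Adgre1 did.

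**Figure D5:**
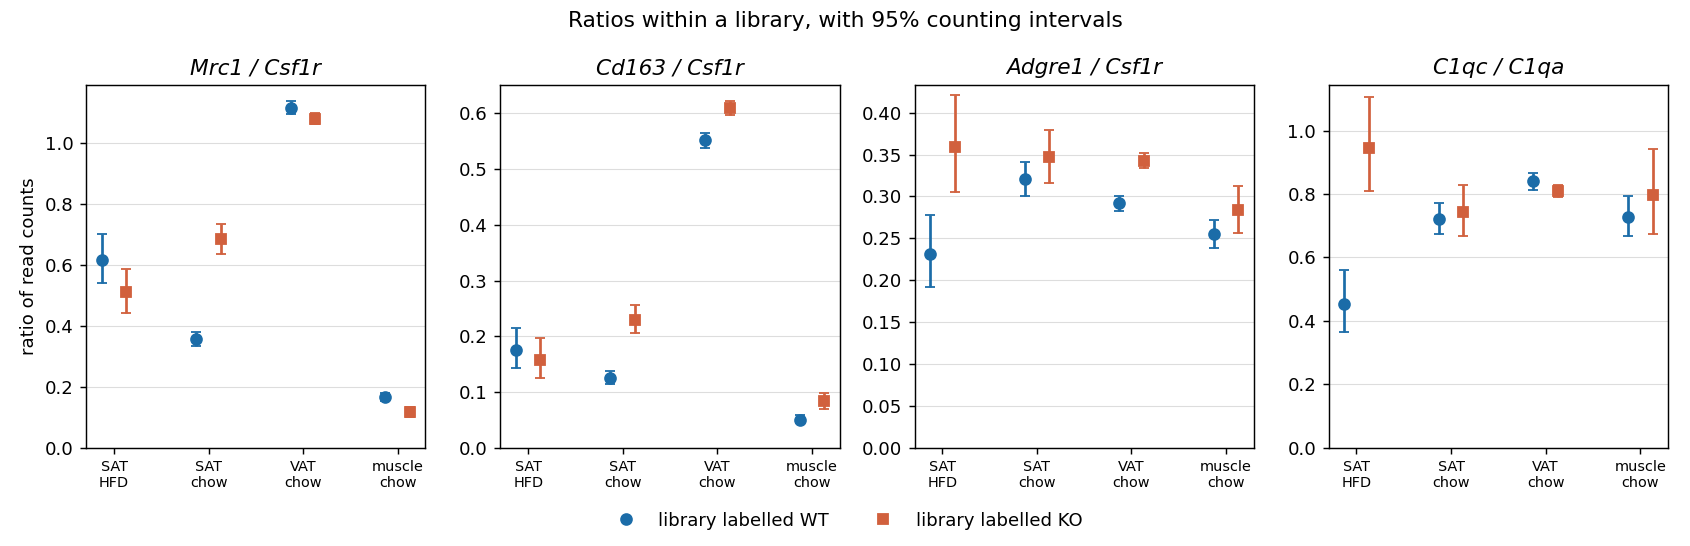
Ratios of read counts between members within each library, with 95% counting intervals (bars). Circles are libraries labelled WT and squares libraries labelled KO. Mrc1 and Cd163 are highest relative to Csf1r in VAT and lowest in muscle, while Adgre1 stays between 0.232 and 0.359. C1qc over C1qa is lowest in SAT HFD WT, at 0.453.

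Other genes of these cells were read from lists of known macrophage biology. Of 13 further resident macrophage genes, 10 were higher in VAT than in SAT on chow (median log2 difference 4.11) and 7 were lower in muscle than in VAT (−2.76). Lyz2, lysozyme, stood at 5408 and 5334 CPM in the VAT libraries labelled WT and KO, and at 4757 and 4890 CPM in muscle, so that it did not follow the members there. Neutrophils also express Lyz2. F13a1, coagulation factor XIII A, stood at 1787 and 1596 CPM in VAT, 258 CPM in both muscle libraries and 60.4 to 67.7 CPM in SAT on chow. It was the 1 gene of the list called higher in muscle than in SAT (log2 2.01, adjusted p = 0.0326, edgeR's quasi-likelihood test). None of the 13 was called for HFD or for KO by edgeR. Within the SAT chow pair, 3 of the 12 with enough counts lay beyond 2-fold lower (11.7% of all genes) and 2 beyond 2-fold higher (19%). In SAT on HFD 2 of 13 lay beyond 2-fold lower (11.1%) and 1 higher (12.7%). In muscle 1 of 13 lay beyond 2-fold lower (2.05%), and in VAT 0 (2.09%). Their median log2 ratios were −0.76 in SAT on chow, −0.43 in SAT on HFD, −0.49 in muscle and −0.02 in VAT.

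Of 9 macrophage transcription factors, 5 were higher in VAT than in SAT on chow (median 1.95) and Zeb2 and Maf were among those lower in muscle than in VAT. Maf stood at 340 and 312 CPM in the VAT libraries labelled WT and KO and at 51.9 and 45.8 CPM in muscle (edgeR adjusted p = 0.00763). Zeb2 stood at 567 and 549 CPM in VAT and at 157 and 150 CPM in muscle (edgeR adjusted p = 0.0464). Spi1, which encodes PU.1 and was chosen after its values were seen, stood at 241 and 227 CPM in VAT and 238 and 199 CPM in muscle, and was not called between them (edgeR adjusted p = 0.974). The range of Spi1 in muscle thus overlapped that in VAT, unlike the ranges of the 9 members. Like the 9 members, Spi1 was called higher in VAT than in SAT on chow (log2 1.53, adjusted p = 0.0431, edgeR). Spi1 is also expressed in neutrophils and B cells.

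The growth factors that bind CSF1R were not called in any of the 5 comparisons by edgeR. Csf1 stood at 57.7 and 56.0 CPM in the VAT libraries labelled WT and KO, 22.1 and 41.2 CPM in SAT on chow, 48.2 and 41.2 CPM in SAT on HFD, and 46.0 and 42.8 CPM in muscle. Il34 stayed at or below 11.0 CPM. The ligand Csf1 thus varied far less between tissues than its receptor.

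Of 8 genes that act with C1q in the classical complement pathway or bind its products, 3 were higher in VAT than in SAT on chow: C4b, a complement component cleaved by the C1 complex, and the receptors C3ar1 and C5ar1. C4b stood at 1054 and 983 CPM in VAT, 57.1 and 88.5 CPM in SAT on chow, and 14.5 and 27.0 CPM in muscle (VAT over SAT log2 3.86, adjusted p = 0.00488, edgeR). C3ar1 differed by 4.76 and C5ar1 by 4.65 on the log2 scale (edgeR adjusted p = 0.00488 and 0.0134). C4b, C3ar1 and C1s1, a protease that partners C1q, were lower in muscle than in VAT, with edgeR adjusted p-values of 0.00458, 0.00498 and 0.0461. C3, the component on which the complement pathways converge, was higher in muscle (930 and 987 CPM) than in SAT on chow (178 and 277 CPM), with an edgeR adjusted p of 0.0323.

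Of 9 scavenger and apoptotic cell uptake receptors and ligands, 5 were higher in VAT than in SAT on chow (median 2.97) and 5 lower in muscle than in VAT. Stab1, a scavenger receptor of macrophages and sinusoidal endothelium, stood at 1046 and 882 CPM in VAT, 39.7 and 46.0 CPM in SAT on chow, and 64.1 and 75.4 CPM in muscle (VAT over SAT log2 4.49, adjusted p = 0.00436, edgeR). Cd36, a fatty acid and lipoprotein receptor shared with endothelium, stood at 1531 and 2082 CPM in VAT and 143 and 203 CPM in SAT on chow (3.38, adjusted p = 0.0104, edgeR). Genes of lipid-associated macrophages moved less. Of 8, only Lgals3 (log2 1.98, adjusted p = 0.0176, edgeR) and Lpl (2.26, adjusted p = 0.0218, edgeR) were higher in VAT than in SAT on chow, and Lpl alone was lower in muscle than in VAT (−2.04, adjusted p = 0.0484, edgeR).

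Markers of further cell types were read for what the sort could hold. Dendritic cell markers summed to 517 and 509 CPM in the VAT libraries labelled WT and KO and to 123 to 304 CPM elsewhere, with 1 of 6 higher in VAT than in SAT on chow. Stromal markers were not called between tissues, and summed to 687 to 3296 CPM. Mural markers summed to 43.2 to 559 CPM, mast cell markers to 19.2 to 164 CPM and muscle fibre markers to 6.25 to 116 CPM. Mesothelial and adipocyte markers stayed at or below 7.73 and 9.63 CPM, and were highest in VAT.

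By Pearson correlation of log2 CPM over the 8 libraries, the profiles most like that of the C1q mean were Lacc1 (r = 0.994), Apoe (0.990), Lgmn (0.989), Tnf (0.989) and Kif19a (0.989). Those most like Csf1r were Scpep1 (0.996), Sulf2 (0.995), Pea15a (0.992), Ctsb (0.992) and Itgb1 (0.991), and Adgre1 shared Sulf2, Pea15a, Ctsb and Itgb1 with it and added Pltp (0.996). Mrc1 and Cd163 shared Cbr2 (0.989 and 0.993) and Clec10a (0.988 and 0.985). To these Mrc1 added Slc11a2, Fcrls and Cd209c (0.985 to 0.988), and Cd163 added Pid1, Siglec1 and Mdfic (0.986 to 0.991). Timd4 was most like Gm13033 (0.988), A130077B15Rik, Ppfibp2, Shmt1 and Mcur1, and Folr2 most like Ccl24 (0.989), Rap2b, Aldh1a2, 2610203C22Rik and Tuft1, all at 0.976 or above. Among the 36 combinations of members, r ran from 0.859 to 0.998. Such values describe 8 points of 4 conditions, 2 of them VAT libraries far above the rest, and carry no test.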

How the data were processed

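RNAseq counts of 8 libraries of mG+ cells were analysed as deposited: whole-number counts per gene that the authors made, with no normalization. Per the labels, RNA was isolated with an RNeasy kit and libraries were made with a SMARTER mRNA kit. The submitters' processing notes name HISAT2 2.0.5 and GRCm38 (mm10). The counting program, the use of strand and the pooling of mice are not given in the sources used here. The 9 members and all lists were chosen with earlier results of these data known.

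The 16971 genes averaging 10 counts or more were tested in R 4.3.3 with edgeR 4.0.16: TMM scaling on those genes, a robust quasi-likelihood fit of condition plus genotype over all 8 libraries (3 residual degrees of freedom), and Benjamini-Hochberg adjustment at 0.05. The condition served as block because it joins the WT and the KO library of a tissue and diet, and the labels give no replicate numbers. Within a pair no test was made. The log2 ratio used a prior count of 0.5, with an exact conditional binomial 95% interval, for genes averaging 10 counts or more over both libraries. Beyond 2-fold means that this whole interval lies past 2-fold.

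Named genes are all members, Tert as the check of the labels, the 2 genes of highest mean CPM in a list, called genes of a macrophage list with 3 or fewer calls, and the 5 genes with the most similar profile. Malat1, Spi1 and Ccr2 were added after their values were seen. Alternatives were DESeq2 1.42.0, other scalings, filters, designs and prior counts, and leaving out pairs or libraries. TMM over all genes and subtraction of the median of 100 length bins were chosen after seeing the data. The fits and intervals were tested on simulated data. Promoter sequences are from RefSeq (GRCm38.p6). No value column was left unmatched to a sample. One gene of the transcription factor list is not reported here.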

Additional observations from a re-analysis of the deposited data

Results flagged for a closer look

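The KO over WT ratios of C1qa, C1qb, C1qc and Adgre1 had counting intervals on opposite sides of 0 in different pairs, and these differences between pairs were not tested, since each pair has 1 library per genotype. For C1qa the log2 ratio was 0.24 in VAT and −1.68 in muscle, 1.92 apart. For C1qb it was 0.20 in VAT and −1.65 in muscle, 1.86 apart. For C1qc it was 0.36 in SAT on HFD and −1.55 in muscle, 1.90 apart. For Adgre1 it was 0.07 in VAT and −0.99 in SAT on chow, 1.06 apart. With the length trend removed, the positive intervals of C1qa, C1qb and Adgre1 in VAT and of C1qc in SAT on HFD reached below 0, so the opposite sides depend on that choice, which was made after seeing the data. In the VAT pair Tert was too scarce to check the labels, so the direction there belongs to the libraries as labelled.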

How the results depend on the processing

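Every VAT over SAT and muscle over VAT member value kept its sign under every alternative. With all genes of at least 1 count, edgeR called 41 genes for KO, 2116 for VAT over SAT, 971 for muscle over SAT, 1166 for muscle over VAT and 289 for HFD, against 1, 857, 213, 328 and 0. DESeq2 called 19, 2305, 1058, 1258 and 260. Both settings called 3 members for muscle over SAT and 3 for HFD, but not all were the same. For muscle over SAT both called Mrc1 and Timd4, to which edgeR on all genes added Folr2 and DESeq2 added Cd163. For HFD both called Adgre1 and Timd4, to which edgeR on all genes added C1qb and DESeq2 added Csf1r. With condition only, 339 (muscle over SAT) and 542 (muscle over VAT) genes were called. Without the block, 0 genes were called for KO and C1qa, C1qb and C1qc turned to 0.025, 0.010 and 0.031. With 1 library or pair left out, a lone library being assumed to vary like the others, calls ran from 0 to 2 genes for KO, 5 to 9 members and 93 to 3449 genes for VAT over SAT, 0 to 1 members and 37 to 1761 genes for muscle over SAT, 2 to 9 members and 41 to 1207 genes for muscle over VAT, and 0 to 1 members and 0 to 308 genes for HFD. In the same runs the Csf1r log2 fold change, muscle over SAT on chow, ran from −0.0062 to 0.44 and the Adgre1 log2 fold change, muscle over SAT on chow, from −0.42 to 0.26. The Folr2 log2 fold change, HFD over chow in SAT, ran from −7.88, a fitted value against 0 counts and no bound, to 0.16. In the SAT chow pair, 0 members lay beyond 2-fold with library totals, which turned Mrc1 to 0.067, and 0 with the length trend removed, which turned C1qb in VAT to −0.00045. The cause was not tested. Of values of single genes across libraries, 595 kept direction and call, 23 lost the call, 14 gained it and 7 reversed. Within pairs 137 stayed inside their counting interval, 26 moved outside it and 2 reversed. No paired analysis by replicate number was possible because the labels give none. Timd4 and Folr2 outside VAT are limited by depth.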
